A study of Homo sapiens with 14 samples.

Results

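RNA-Seq of the SIN3A/3B-DKO lines of MDA-MB-231, an established human triple-negative breast cancer (TNBC) cell line, was compared with RNA-Seq of parental MDA-MB-231 cells, and the functions and gene families that changed the same way in both lines are described here. The comparison was chosen by the sample labels and holds 6 of the 14 libraries of the study: 2 of parental cells, 2 of the line SIN3A/3B-DKO1 and 2 of the line SIN3A/3B-DKO2 (DKO1 and DKO2 in what follows). The other 8 libraries come from SAP30-KO and MLL1-KO lines. They were used to estimate the spread between replicates, to give medians by chromosome arm and, for SAP30-KO, for a direct comparison. The parental group has the genotype label parental and the DKO groups carry knockouts of SIN3A and SIN3B made with CRISPR/Cas9; all were untreated and grown in DMEM with 10% FBS. According to the study's methods, cells received puromycin after the sgRNA vector, and several knockout cells were picked, expanded and mixed, so that a line is a mix of clones. The study lists 1 sgRNA for SIN3A and 1 for SIN3B. Agreement between DKO1 and DKO2 is therefore not agreement between different sgRNAs, and shared off-target effects were not tested. Nothing in the labels says that the 2 libraries of a group came from separate cultures, and p-values measure only the spread between these libraries, which may be technical.

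SIN3A and SIN3B are large scaffold proteins that hold the histone deacetylases HDAC1 and HDAC2 together with histone-binding and adaptor subunits such as RBBP4, SAP30, SUDS3, and ING proteins. SIN3 does not bind DNA itself but is brought to promoters by DNA-binding factors. The deacetylases remove acetyl groups from histone tails, and the complex is known best as a corepressor, although it also occupies promoters of active genes.

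Each library held between 19386389 and 23162682 recovered whole reads in the 6 libraries compared. In every group the spread of the 2 replicates exceeded what counting reads alone gives: chi-square over its degrees of freedom was 2.2 in parental, 1.47 in DKO1 and 8.0 in DKO2. SIN3A RNA (chromosome 15, 75661720 to 75748183 in GRCh37) was 43.1 and 45.4 TPM (a share of transcripts scaled so that each library sums to 1000000) in the parental libraries, 60.6 and 62.5 in DKO1, and 55.1 and 55.2 in DKO2. It was thus higher in all 4 DKO libraries than in both parental ones, by 0.47 and 0.31 on the log2 scale (standard error 0.04, adjusted p = 2.2e-06 and 4.9e-05 in limma), which is short of 1.5-fold. SIN3B RNA (chromosome 19, 16940209 to 16991164) was 75.1 and 77.4 TPM in parental, 50.2 and 49 in DKO1, and 49.7 and 43.5 in DKO2. SIN3B fell by 0.61 and 0.71 on the log2 scale (standard error 0.06, adjusted p = 5.6e-06 and 2.5e-06 in limma). The RNA of SIN3B, but not that of SIN3A, was therefore reduced in the libraries carrying the label SIN3A/3B-DKO. An RNA level shows an edit only where the edit changes the amount of transcript. The study reports that both proteins were knocked out in these cells and shows immunoblots of SIN3A and SIN3B in parental and DKO cells. Protein was not analysed here.

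The other SIN3 subunits stayed near their parental level. Of 24 tested genes of the complex, SIN3B was the only one called in both lines, and the median log2 fold change of the 24 was 0.02 in DKO1 and 0.03 in DKO2. HDAC1, which with HDAC2 provides the catalytic activity, went from 195 and 204 TPM in parental to between 245 and 252 in the 4 DKO libraries, a log2 fold change of 0.33 and 0.31. HDAC2 went from 99.8 and 99.1 to between 81.4 and 92.6 TPM (log2 fold change -0.27 and -0.16). SAP30, the adaptor subunit, had 78.9 and 82.8 TPM in parental and 66.1 to 75.6 TPM in DKO, a difference that did not pass the test (adjusted p = 0.59 and 0.33 in limma). The histone-binding subunit RBBP4 had 46.6 and 45.2 TPM in parental and 32.1 to 34.9 in DKO, 0.50 and 0.43 lower on the log2 scale and so just short of the fold minimum. SAP25, a small subunit that shuttles between nucleus and cytoplasm, was called higher in DKO1 alone, with 5.36 and 4.73 TPM there against 3 and 2.91 in parental and 3.84 and 3.34 in DKO2, but it was not called in DKO1 once the median of its neighbours was subtracted.

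A gene was called when its change from parental was at least 1.5-fold on the log2(TPM + 0.5) scale with a Benjamini-Hochberg adjusted p under 0.05 over the 13540 genes tested. In DKO1, 1173 genes were lower (8.66% of those tested) and 1051 higher (7.76%); in DKO2, 1024 were lower (7.56%) and 813 higher (6%). Called the same way in both lines were 811 lower genes (5.99%) and 637 higher genes (4.7%), together 10.7% of all genes tested. Both lines were compared with the same 2 parental libraries, so the number shared by the lines is a count and not a test. Another 10939 genes were called in neither line and 12 in opposite directions. The median log2 fold change of all tested genes was 0 in DKO1 and 0.01 in DKO2.

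Genes were called more often where parental expression was low. Among genes at 100 TPM or more in parental, 2.33% of 2276 were lower and 1.58% higher in both lines, while among genes from 1 to under 5 TPM the shares were 12.7% and 9.76% of 1978. Below 1 TPM in parental, 15.3% of 778 genes were higher, but genes that low were tested only where other libraries had lifted them over the filter, so that this share was raised by the filter. Conversely, genes at 1 TPM or more in both parental libraries passed by these alone. Some, such as the cancer-testis gene MAGEA12, were under 1 TPM in every other library and could only be called lower. Their part in the lower shares was not tested. A group of 43 genes had at least 20 reads in both parental libraries and at most 3 in each of the 4 DKO libraries, 9 of them with 0 reads in all 4. The reverse, at most 3 reads in both parental and at least 20 in every DKO library, was seen for 1 gene. This gene, METTL7B, encodes a methyltransferase-like protein of the endoplasmic reticulum and was named after its values were seen; it had 1 and 3 reads in parental, 27 and 22 in DKO1 and 28 and 21 in DKO2.

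**Figure D1:**
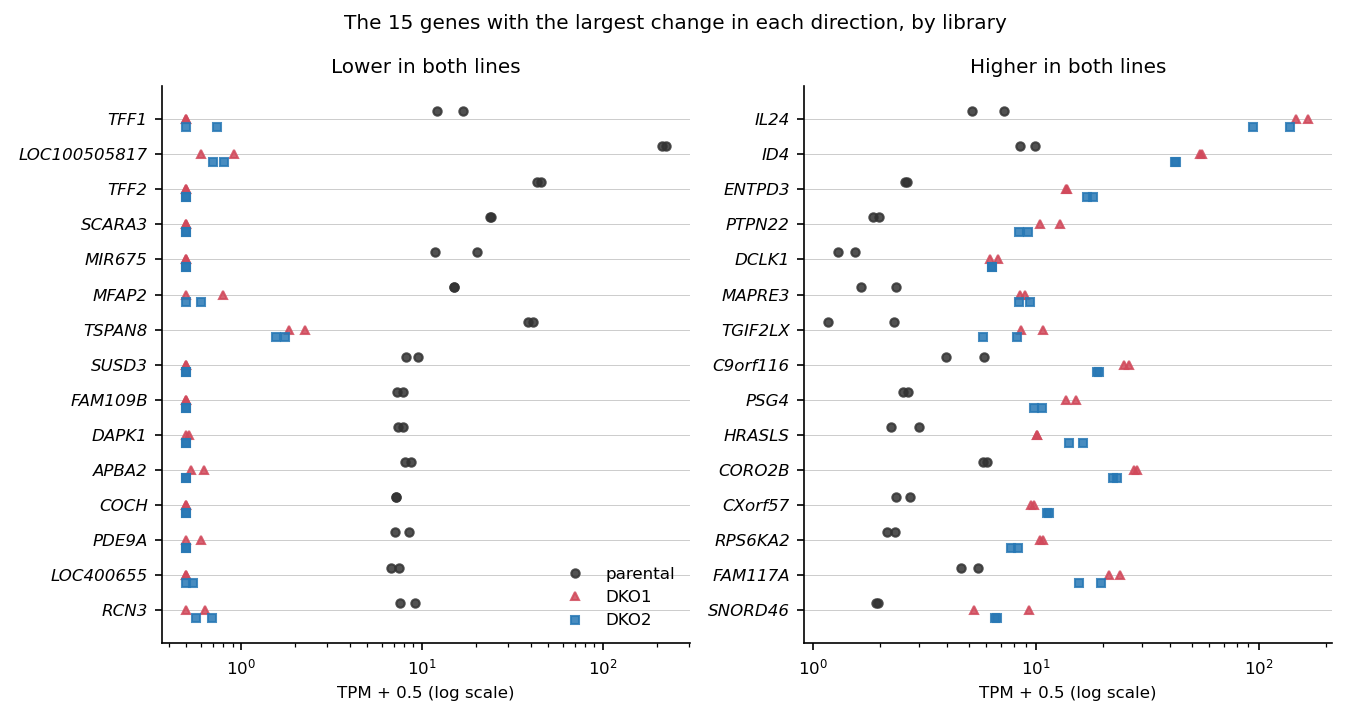
TPM + 0.5 on a log axis for the 15 genes with the largest change in each direction, with 1 point per library for parental (circles), DKO1 (triangles) and DKO2 (squares). The genes were picked by the size of their change, so that DKO and parental points lie apart by selection. IL24 reaches between 94 and 166 TPM in DKO, and many of the lower genes sit at 0.5, which stands for 0 TPM.

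The largest decreases took genes from clear expression to a few reads. TFF2, a trefoil peptide secreted with mucus, had 43.1 and 45 TPM in parental and 0 reads in all 4 DKO libraries, at least 84.1-fold lower against a floor of 3 reads per library. SCARA3, a scavenger receptor-like protein, went from 23.2 and 23.7 TPM to 0 reads in all 4, at least 242-fold lower. Both genes were thus not detectable in DKO at this depth. SUSD3 was at least 26.8-fold lower, FAM109B at least 44.7-fold, and COCH, which encodes the secreted protein cochlin, at least 17.3-fold, again with 0 reads in all 4 DKO libraries. The noncoding transcript LOC100505817 had 1886 and 1734 reads in parental, 1 and 4 in DKO1, and 3 and 2 in DKO2, a ratio of 850 for DKO2 with a 95% counting interval from 364 to 2619. DAPK1, a death-associated protein kinase, had 313 and 288 reads in parental and 1 read in 1 of the 4 DKO libraries. H19, an imprinted noncoding RNA, and MIR675, which lies within it, were both among the lower genes, with 152 and 158 reads of H19 in parental against 9, 3, 1 and 0 in DKO. TSPAN8, a cell surface tetraspanin, kept a low level, 1.07 to 1.75 TPM in DKO after 38 and 40.7 in parental, and fell by 4.29 and 4.58 on the log2 scale (standard error 0.30, adjusted p = 7.8e-07 and 6e-07 in limma).

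The largest increase was that of IL24, a cytokine of the IL-10 family, with 6.68 and 4.69 TPM in parental, 146 and 166 in DKO1, and 138 and 94 in DKO2. It rose by 4.68 and 4.23 on the log2 scale (standard error 0.18, adjusted p = 1.7e-08 and 3.8e-08 in limma). ID4, an inhibitor of basic helix-loop-helix factors, had 9.47 and 7.99 TPM in parental, 54.3 and 55.2 in DKO1, and 41.9 and 41.6 in DKO2. ENTPD3, an ectonucleotidase, went from 2.14 and 2.1 TPM to between 13.2 and 17.5, and PTPN22, a protein tyrosine phosphatase of lymphocytes, from 1.49 and 1.37 to between 7.95 and 12.3. These genes were picked for the size of their change, so that a gap between the groups follows from the choice. The neuronal kinase DCLK1, the microtubule-binding protein MAPRE3, the actin-binding protein CORO2B and the kinase RPS6KA2 were each higher by between 1.84 and 2.24 on the log2 scale in both lines. SNORD46, a small nucleolar RNA, is listed among the 15 but rests on 1 read in each parental library and 4 to 7 in DKO, and it was no longer called in either line when either parental library was left out.

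The promoters of a pair of raised genes and a pair of lowered genes are shown to give the context of these changes, as the 250 bases before the RefSeq transcription start in GRCh38.p14, all on the plus strand. Capitals mark matches, on either strand, to a CCAAT box (CCAAT), a GC box (GGGCGG) or a TATA box (TATAAA). IL24 and ID4 rose, while COL6A2, a chain of collagen VI, and IGFBP4, a binding protein of insulin-like growth factors, fell.
IL24, chr1:206897193-206897442: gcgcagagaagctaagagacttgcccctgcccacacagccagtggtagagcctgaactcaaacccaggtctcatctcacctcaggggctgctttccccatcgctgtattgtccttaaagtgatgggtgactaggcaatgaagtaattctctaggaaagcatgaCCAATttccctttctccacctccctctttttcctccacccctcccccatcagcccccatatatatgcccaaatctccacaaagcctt
ID4, chr6:19837120-19837369: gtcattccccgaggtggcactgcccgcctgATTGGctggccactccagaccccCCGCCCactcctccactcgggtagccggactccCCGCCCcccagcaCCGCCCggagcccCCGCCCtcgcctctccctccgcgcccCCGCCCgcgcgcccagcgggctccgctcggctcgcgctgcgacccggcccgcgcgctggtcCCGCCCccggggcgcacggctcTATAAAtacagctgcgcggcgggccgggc
COL6A2, chr21:46097862-46098111: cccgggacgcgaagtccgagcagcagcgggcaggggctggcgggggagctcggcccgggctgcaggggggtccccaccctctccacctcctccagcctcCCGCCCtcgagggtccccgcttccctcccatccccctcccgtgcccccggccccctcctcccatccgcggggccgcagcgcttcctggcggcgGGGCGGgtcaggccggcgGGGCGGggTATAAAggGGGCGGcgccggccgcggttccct
IGFBP4, chr17:40443200-40443449: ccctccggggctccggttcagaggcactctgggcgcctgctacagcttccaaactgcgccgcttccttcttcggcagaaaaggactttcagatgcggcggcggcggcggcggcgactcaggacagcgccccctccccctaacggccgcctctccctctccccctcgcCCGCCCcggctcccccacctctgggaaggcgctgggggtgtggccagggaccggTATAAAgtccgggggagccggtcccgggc
The IL24 window holds 2 CpG dinucleotides and those of ID4, COL6A2 and IGFBP4 hold 34, 28 and 24. The latter 3 share the letters TATAAA, which begin 29, 32 and 29 bases before the start, and between 1 and 6 GC boxes. Only these exact letters were searched for as a TATA box, and the IL24 window holds the similar letters TATATAT near its end.

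Windows of this kind could be matched for 7421 of the tested genes, 432 of them lower and 330 higher in both lines. The letters CCGGAAG, an ETS motif, stood on either strand in 18% of all windows, but in 6.94% of those of lower genes and 10.6% of those of higher genes. TATAAA was found in 9.72% of the windows of lower genes and 6.97% of those of higher genes, against 5.32% of all. CCAAT was found in 31.2%, 41.5% and 37%, and the GC box GGGCGG in 67.6%, 65.5% and 69.9%. The E-box CACGTG stood in 6.71% and 11.2% against 9.15%, the AP-1 motif TGACTCA in 1.85% and 3.03% against 2.59%, and the E2F motif TTCCCGC in 7.18% and 6.97% against 9.23%. Windows with under 5 CpG made up 11.6% and 12.1% of those of lower and higher genes and 5.39% of all. These shares describe letters, genes of low expression were called more often, and their part in the shares was not tested.

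**Figure D2:**
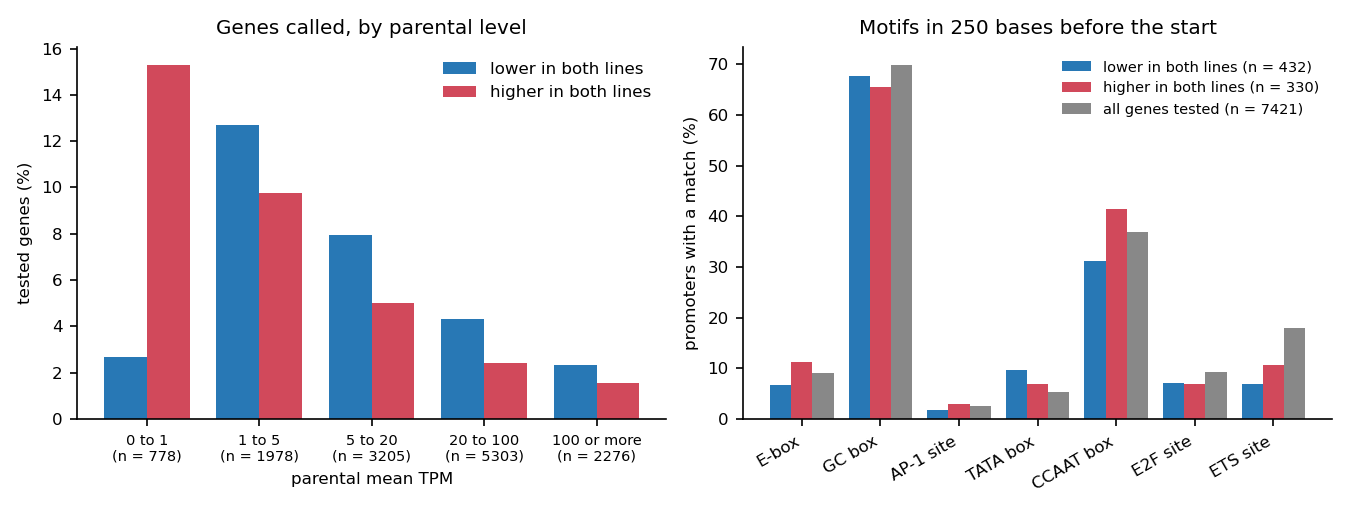
Left, the percentage of tested genes called lower or higher in both lines, by parental mean TPM. Right, the percentage of promoter windows with a match to each motif for lower genes (432), higher genes (330) and all tested genes with a window (7421); the ETS motif is rarer in both called groups and the TATA box more frequent.

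The genes were then read by function, with 89 lists of pathways, gene families and cell type markers. A list of at least 8 tested members was described where the share of members called the same way in both lines was at least 1.5 times, or at most 0.5 times, the 10.7% of all genes. This held for 60 lists, 48 with a high and 12 with a low share. The 10.7% is not matched for parental expression level. Genes of low expression were called more often, and the part of expression level in these shares was not tested. Members at 1 TPM or more in the parental libraries alone could only be called lower, and their part was not tested either. Another 20 lists of that size, with 741 members, had 56 lower and 32 higher members and shares from 5.88% to 14.3%, and 9 lists had fewer than 8 tested members.

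**Figure D3:**
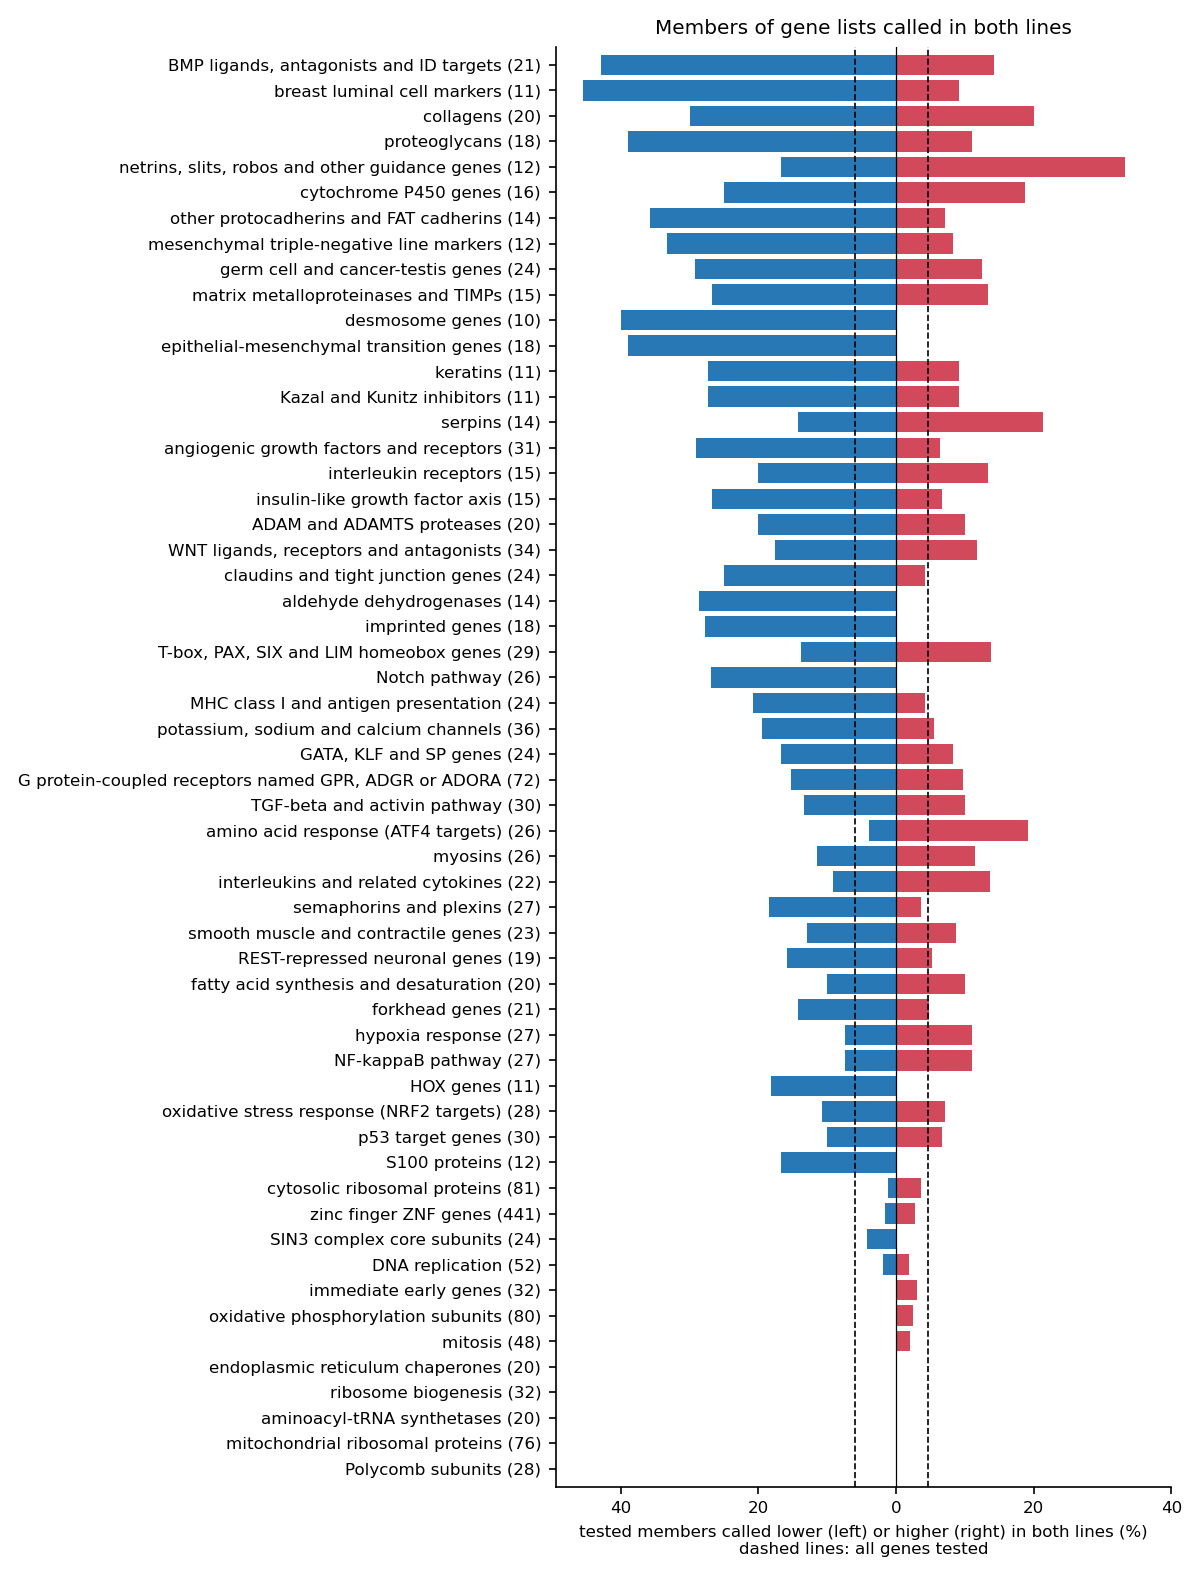
Percentage of the tested members of each described list with at least 10 tested members that were called lower (left bars) or higher (right bars) in both lines, with the number tested in parentheses. The dashed lines are the shares of all genes, 5.99% and 4.7%; the BMP list is at the top with 9 of 21 members lower and 3 higher, and 5 lists at the bottom have no member called.

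The bone morphogenetic protein (BMP) pathway had the highest share of the lists described. BMP ligands bind paired receptors, which phosphorylate SMAD1, SMAD5 and SMAD9, and the ID genes are their best known targets, while secreted antagonists such as noggin trap the ligands. Of 21 tested members, 9 fell and 3 rose in both lines, which is 57.1%, and the median log2 fold change was -0.63 in DKO1 and -0.56 in DKO2. The target ID3 had 6.17 and 5.76 TPM in parental and 1.05, 0.399, 0.575 and 1.17 in the DKO libraries, lower by 2.46 and 2.27 on the log2 scale (standard error 0.27, adjusted p = 2.2e-05 and 4.8e-05 in limma). Its paralog ID1 had 45.3 and 50.2 TPM in parental and 24.3 to 25.1 in DKO. The ligand BMP4 fell from 240 and 249 TPM to between 135 and 155, the receptor BMPR1B from 3.44 and 3.75 to between 0.623 and 1.41, and SMAD9 from 1.62 and 1.69 to between 0.243 and 0.463. The members that fell thus included a ligand, a receptor, a transducer and the targets ID1 and ID3, whereas the target ID4 rose by 2.59 and 2.20 on the log2 scale. The inhibitory SMAD6 and the antagonist NBL1 fell as well, SMAD6 from 16.1 and 16.9 TPM to between 8.58 and 9.62 and NBL1 from 43.1 and 42.3 to between 18.1 and 21.9. The antagonists NOG and CHRDL1 went the other way: NOG, which encodes noggin, had 43.3 and 44.6 TPM in parental and 130, 127, 124 and 107 in DKO, and CHRDL1 25.2 and 28.2 TPM and 72, 73.4, 77 and 82.4. NOG rose by 1.54 and 1.38 and CHRDL1 by 1.43 and 1.56 on the log2 scale. With ID4, they were the 3 members that rose. CHRDL1 lies on the long arm of the X chromosome, where neighbouring genes were higher by a median of 0.67 and 0.65 in the lines. The values of ID1, BMP4, BMPR1B, SMAD9, SMAD6 and NBL1, like those of other genes named beyond the rule, were chosen after they were seen.

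Called genes of epithelial cell contacts were mostly lower. Desmosomes are spot-like junctions that anchor keratin filaments, and 4 of 10 tested desmosome genes fell and none rose. JUP, which encodes plakoglobin, had 17.4 and 19.9 TPM in parental, 1.68 and 2.11 in DKO1, and 3.56 and 3.11 in DKO2. DSP, the linker desmoplakin, had 77 and 71.2 TPM in parental and 31.3 to 36.5 in DKO, and DSC2 and PPL fell as well, by between 0.90 and 1.47 on the log2 scale. Of 24 tested claudins and tight junction genes 6 fell and 1 rose, and the lower ones included CLDN1 and CLDN2, which seal or perforate the junction strands, and MARVELD2, which encodes tricellulin; 2 were higher without parental replicate 1. CLDN1 had 10.2 and 11 TPM in parental, 2.86 and 2.47 in DKO1, and 0.998 and 1.51 in DKO2. Keratins, the filaments that desmosomes hold, showed 3 lower and 1 higher of 11. KRT19 had 432 and 444 TPM in parental, 113 and 114 in DKO1 and 234 and 195 in DKO2, and KRT7 273 and 269 in parental and 95.4 to 134 in DKO. KRT8 and KRT18 were lower by 0.56 and 0.62 in DKO1 and by 0.48 and 0.50 in DKO2 on the log2 scale, so that only KRT18 in DKO1 passed 1.5-fold. KRT34 rose, from 0.974 and 0.834 TPM to between 2.83 and 4.68. KRT81 stood out, since it went opposite ways: 15.2 and 16.2 TPM in parental, 6.6 and 7.37 in DKO1, and 46.3 and 42.7 in DKO2; it is closely related to KRT86, and reads may have been split between them.

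Of 18 tested genes of the epithelial-mesenchymal transition (EMT), 7 fell in both lines and none rose in both. The genes that moved do not all belong to 1 side of the transition: CDH1, which encodes E-cadherin, the adhesion protein EPCAM, the protease inhibitor SPINT1, the transcription factor ELF3 and MARVELD2 are epithelial, and the homeobox gene PRRX1 and S100A4 mesenchymal. ELF3 had 5.61 and 6.07 TPM in parental and 0.834, 0.76, 1.21 and 0.673 in DKO, lower by 2.29 and 2.16 on the log2 scale. S100A4 had 332 and 377 TPM in parental and 87, 95, 98.8 and 85.8 in DKO, lower by 1.96 and 1.94 (standard error 0.09, adjusted p = 7.5e-08 and 1e-07 in limma). CDH1 was low already in parental, 1.07 and 1.25 TPM, and 0.0756 to 0.282 in DKO. VIM, the mesenchymal filament vimentin, was not called, with means of 5785 TPM in parental, 6437 in DKO1 and 5990 in DKO2. FN1, also on the mesenchymal side, was called higher in DKO1 alone. Its libraries lay 0.71 and 0.76 above the parental mean in DKO1 and 0.55 and 0.57 in DKO2, on the log2 scale. Of 12 markers of mesenchymal TNBC lines 4 fell and 1 rose, and of 11 tested luminal markers 5 fell and 1 rose. The luminal markers ESR1, PGR, FOXA1 and ELF5 were below the filter, and KRT8, KRT18, GATA3 and XBP1 were expressed in parental. Markers of other cell types were few: 2 of 10 fibroblast markers and 3 of 12 endothelial and blood markers passed the filter. The defining markers DCN, CDH5 and HBB were at 0 in all 6 libraries and FAP at most at 0.0514 TPM, and among the markers tested only PDGFRB was called, lower. Without parental replicate 1, or with the median of neighbouring genes subtracted, 1 EMT gene was higher.

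**Figure D4:**
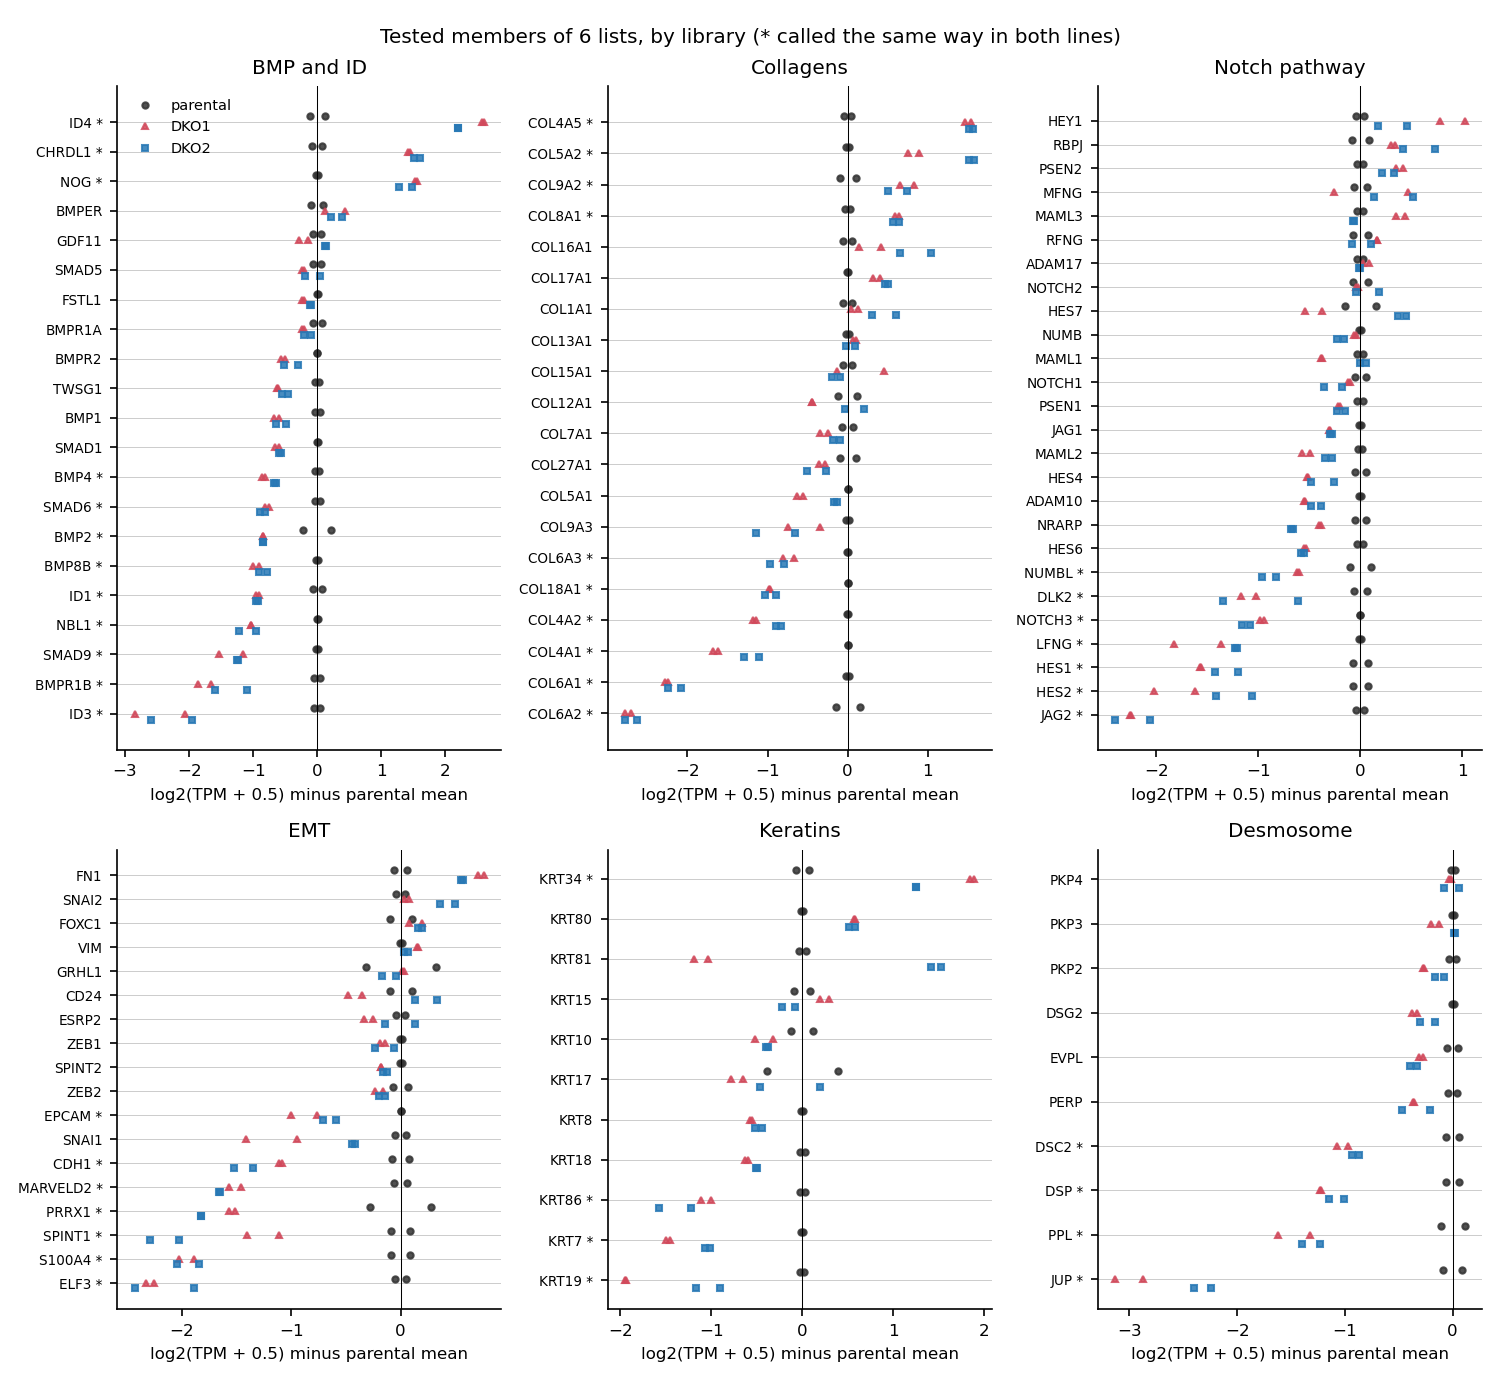
Change of each tested member of 6 lists from the parental mean, in log2(TPM + 0.5), with 1 point per library (circles parental, triangles DKO1, squares DKO2); an asterisk marks members called the same way in both lines. In the BMP panel ID4, CHRDL1 and NOG lie to the right of 0 and 9 members marked at the bottom lie to the left; the Notch, EMT and desmosome panels have marked members on the left only, and KRT81 has DKO1 and DKO2 on opposite sides.

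The secreted peptides that accompany mucus were all lower. TFF1, TFF2 and TFF3, which lie side by side on chromosome 21, the anterior gradient protein AGR2 and the mucin MUC1 were the 5 tested members of their list, and 5 of 5 fell. TFF3 had 5.67 and 5.82 TPM in parental and is listed at 0 in all 4 DKO libraries; its read counts could not be determined from the steps of its values. TFF1 had 41 and 57 reads in parental and 1 read in 1 DKO library. AGR2 had 161 and 175 TPM in parental, 27.5 and 34.2 in DKO1 and 28.8 and 13.3 in DKO2. MUC1 had 6.36 and 4.82 TPM in parental and 1.41 to 2.51 in DKO, and was not called in DKO2 without parental replicate 1. Because the list was so small and was composed with earlier results of these data known, its share is a description only.

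Genes of the extracellular matrix went in both directions. Of 20 tested collagen genes 6 fell and 4 rose. The genes COL6A1, COL6A2 and COL6A3, which encode chains of collagen VI, a beaded filament around cells, all fell: COL6A1 had 53.3 and 54.8 TPM in parental and 11, 10.7, 12.4 and 11.1 in DKO, COL6A2 104 and 79 reads in parental and 1, 0, 2 and 0 reads in DKO, and COL6A3 7.37 and 7.52 TPM and 3.57 to 4.5. COL6A1 was lower by 2.26 and 2.16 on the log2 scale (standard error 0.05, adjusted p = 4.9e-10 and 1.2e-09 in limma), and for COL6A2 the ratio of reads between parental and all DKO libraries was 143, with a 95% counting interval from 48.1 to 699. The basement membrane chains COL4A1 and COL4A2, neighbours that share a promoter region on chromosome 13, fell together, COL4A1 from 90.5 and 90.6 TPM to between 27.8 and 41.8 and COL4A2 from 215 and 214 to between 94.4 and 120. COL18A1, the source of endostatin, fell from 37.7 and 37.8 TPM to between 18.2 and 20.1. Higher were COL4A5, from 1.54 and 1.64 TPM to between 5.3 and 5.69, and COL5A2, COL8A1 and COL9A2; COL4A5 lies on the long arm of X. COL8A1 and COL9A2 in both lines and COL4A2 in DKO2 were no longer called once the median of their neighbours was subtracted. COL8A1 was not called in either line without parental replicate 2, nor COL9A2 in DKO2 without parental replicate 1, and neither in DKO2 without replicate 1 of that line. Of 8 tested laminins LAMA4 and LAMA5 fell, LAMA4 from 6.98 and 6.49 TPM to between 0.502 and 0.7; without DKO2 replicate 1, 1 laminin was higher.

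Proteoglycans, core proteins with long sugar chains, had 7 lower and 2 higher of 18 tested members and a median log2 fold change of -0.67 and -0.5. CSPG4, a cell surface chondroitin sulfate proteoglycan also known as NG2, had 16.3 and 14.7 TPM in parental, 1.09 and 1.07 in DKO1, and 2.88 and 2.43 in DKO2. The glypican GPC1 went from 26.9 and 27.8 TPM to between 12.8 and 13.5. The matrix proteoglycan VCAN and the granule proteoglycan SRGN rose, SRGN from 491 and 495 TPM to 907 and 927 in DKO1 and 777 and 726 in DKO2. Among matrix metalloproteinases and their inhibitors 4 of 15 fell and 2 rose. TIMP3, an inhibitor bound to the matrix, had 819 and 826 TPM in parental and 190, 189, 181 and 193 in DKO, lower by 2.12 and 2.13 on the log2 scale (standard error 0.04, adjusted p = 1.2e-10 and 2.5e-10 in limma). MMP2, a gelatinase, had 45 and 53 reads in parental and 1 read in 1 DKO library, while MMP24 rose from 0.963 and 0.758 TPM to between 3.79 and 6.85. Of 20 ADAM and ADAMTS proteases 4 fell and 2 rose, with ADAMTS1 going from 52.5 and 52.3 TPM to between 21.9 and 26.6 and ADAMTS9 from 2.15 and 2.11 to between 5.96 and 7.78. Without DKO2 replicate 1, 1 proteoglycan rather than 2 was higher, and SRGN was then not called in DKO2. The count of higher metalloproteinase genes was 1 without DKO1 replicate 1, DKO2 replicate 2 or parental replicate 2, and that of ADAM and ADAMTS proteases 4 without parental replicate 1.

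Protease inhibitors went both ways. Of 14 tested serpins 2 fell and 3 rose. The lower count was 1 without either DKO2 replicate or parental replicate 1, since SERPINF1 was then not called in DKO2, and SERPIND1, higher, was not called in DKO1 without DKO1 replicate 2 or parental replicate 2. Of 11 Kazal and Kunitz inhibitors 3 fell and 1 rose. The member that rose, SPINK1, a pancreatic trypsin inhibitor, had 0 reads in both parental libraries, 23 and 17 in DKO1 and 6 in each of DKO2, at least 5.61-fold and 1.68-fold higher. SPINK4 had 16.3 and 12.4 TPM in parental and 0.96 to 2.58 in DKO. Of 7 tested type 2 cystatins, inhibitors of cysteine proteases in secretions, CST1, CST2 and CST4 rose and none fell. CST1 had 19.4 and 18.2 TPM in parental, 136 and 141 in DKO1 and 59.7 and 62.4 in DKO2. These genes are near-identical neighbours on chromosome 20, and the authors' counting could have divided their reads.

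Angiogenic growth factors and their receptors had 9 lower and 2 higher of 31 tested members. With its RNA-Seq the study asked which genes SIN3A and SIN3B share with SAP30, and it followed 6 of the lower genes further. PDGFB and PDGFD encode ligands of the platelet-derived growth factor receptors: PDGFB had 40 and 44 reads in parental and 3, 3, 11 and 4 in DKO, and PDGFD 8.32 and 8.15 TPM and 3.57, 4.17, 3.66 and 5.04. ADM2, a peptide of the adrenomedullin family, had 3.81 and 3.68 TPM in parental and 0.341 to 0.896 in DKO. The receptor PDGFRB fell as well, and APLN, the ligand of the apelin receptor, rose from 4.23 and 4.47 TPM to between 12.2 and 13.8; APLN lies on the long arm of X. Without parental replicate 1, 1 angiogenic gene rather than 2 was higher. RDX, a linker between actin and the membrane, had 140 and 137 TPM in parental and 61.8, 61.7, 64 and 74.4 in DKO, lower by 1.16 on the log2 scale in DKO1 (standard error 0.07) and called in both lines (adjusted p = 2.2e-07 and 7.1e-07 in limma). The EBP50 gene SLC9A3R1, whose product binds RDX, fell by 0.93 and 1.04, and these were the 2 lower of 8 tested genes of this kind. CLDN1 and NOTCH3, the other two genes followed, are given with their families. The examples that the study took as repressed were higher: ARTN by 1.60 and 1.07, IPO13 by 0.86 and 0.77, and HSPA6 by 0.99 and 1.38 on the log2 scale; IPO13 was not called once the median of its neighbours was subtracted. These 9 genes were picked by the study from these libraries and are no independent evidence.

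Of 26 tested genes of the Notch pathway, in which membrane-bound ligands trigger the cleavage of a receptor that then turns on HES genes, 7 fell and none rose. The ligand JAG2 had 2.76 and 2.59 TPM in parental and 0.161, 0.169, 0.265 and 0.104 in DKO, and the receptor NOTCH3 1.52 and 1.52 TPM and 0.406 to 0.551. HES1 and HES2 and the glycosyltransferase LFNG, which modifies Notch receptors, fell too, HES1 from 42.4 and 46.7 TPM to between 14.7 and 19 and LFNG from 23.8 and 24 to between 6.38 and 10. HEY1, also a Notch target, went the other way and was called higher in DKO1 alone. Its libraries lay 1.02 and 0.78 above the parental mean in DKO1 and 0.17 and 0.46 in DKO2, on the log2 scale. DLK2 and NUMBL completed the 7, the latter an antagonist of Notch, lower by 0.61 and 0.89 on the log2 scale and not called in DKO1 without parental replicate 1. For WNT genes 6 of 34 fell and 4 rose: RNF43, a ubiquitin ligase that removes WNT receptors, had 0.244 and 0.219 TPM in parental and 2.24 to 3.1 in DKO, WNT5A rose from 2.92 and 2.54 TPM to between 7.55 and 9.62, and KREMEN1 and TCF7L1 fell. Of 30 genes of the TGF-beta and activin pathway 4 fell and 3 rose. ENG, the coreceptor endoglin, had 65.8 and 65.7 TPM in parental, 5.41 and 4.79 in DKO1 and 0.409 and 0.683 in DKO2, lower by 3.57 on the log2 scale in DKO1 (standard error 0.12) and further down in DKO2 (adjusted p = 7.7e-09 and 2.8e-10 in limma). The activin subunit INHBB rose from 73.9 and 70.7 TPM to between 159 and 175, and the activin antagonist FSTL3 fell from 29.4 and 29.2 to between 11.2 and 14.

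Of 15 genes of the insulin-like growth factor axis 4 fell and 1 rose. IGFBP4, one of the most abundant transcripts of the parental cells, had 3314 and 3422 TPM there, 880 and 873 in DKO1, and 1124 and 1220 in DKO2, lower by 1.94 and 1.52 on the log2 scale (standard error 0.04, adjusted p = 1.2e-10 and 1.1e-09 in limma). IGFBP3 fell from 105 and 102 TPM to between 38 and 55.9, and the ligand IGF2 from 3.29 and 3.92 to between 0.115 and 0.803, while IGFBP5 rose from 0.201 and 0.16 to between 0.895 and 1.48. IGF2 neighbours H19, and both were among 5 of 18 tested imprinted genes that fell, with none that rose; the others were CDKN1C, PEG10 and TP73. Of 8 tested FGF genes FGFR4 and the carrier FGFBP1 fell. FGFBP1 rested on 11 and 7 reads in parental and on 1 read in 1 DKO library.

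Guidance receptors and ligands, which steer axons and vessels, had 2 lower and 4 higher of 12 tested members. NEO1, the netrin receptor neogenin, had 5.81 and 5.7 TPM in parental and 0.864, 0.61, 0.453 and 0.411 in DKO, and ROBO2 fell too. ROBO4, the endothelial roundabout receptor, rose from 19.1 and 15.7 TPM to between 40.3 and 47.9, and the netrin NTN4 from 46.2 and 43.6 to between 87.3 and 97; SLIT2 and ROBO3 were the others that rose. Of 27 semaphorins and plexins 5 fell and 1 rose. SEMA3F, a secreted repellent, had 40.1 and 41.4 TPM in parental and 5.36, 5.41, 6.28 and 5.83 in DKO, lower by 2.81 and 2.65 on the log2 scale (standard error 0.09, adjusted p = 5.2e-09 and 1.1e-08 in limma), and SEMA3E 4.65 and 4.88 TPM and 0.144 to 0.247. Of 14 protocadherins outside the clusters and FAT cadherins 5 fell and 1 rose, with PCDH20 going from 10.6 and 11.6 TPM to between 1.58 and 2.24, PCDH10 from 112 and 113 reads to between 1 and 11, and FAT3 from 4.8 and 4.57 TPM to between 8.94 and 11.2. Contractile genes were mixed, with 3 lower and 2 higher of 23: ACTG2 and ACTA2, the smooth muscle actins, fell, and CNN1 rose from 2 and 3 reads to between 8 and 21, but was not called in DKO2 without replicate 1 of that line or without either parental library. Of 26 myosins 3 fell and 3 rose, of which 1 rose without parental replicate 1 or with the neighbour median subtracted.

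Cytokines, their receptors and genes of antigen presentation were called in both directions. Of 22 tested interleukins and related cytokines IL24, IL6 and IL32 rose and IL18 and TNFSF9 fell. IL32 was not called in DKO2 without either replicate of that line or parental replicate 2. Of the cytokines, 1 rather than 2 was lower without DKO2 replicate 1 or parental replicate 1 or with the neighbour median subtracted. IL6 had 4.46 TPM in both parental libraries and 12.2, 15.1, 14.9 and 8.91 in DKO. Of 27 genes of the NF-kappaB pathway 3 rose and 2 fell: the inhibitor TNFAIP3 rose from 2.76 and 2.77 TPM to between 4.56 and 6.93 and the adaptor TRAF1 from 10.7 and 9.77 to between 16.6 and 25.7, while the receptor CD40 fell from 21 and 21.2 to 7.58 and 6.88 in DKO1 and 3.16 and 2.63 in DKO2. Interleukin receptors had 3 lower and 2 higher of 15, IL7R rising from 6.14 and 5.9 TPM to between 11 and 14.1. The other higher receptor, IL20RB, with 7 and 6 reads in parental, was not called in at least 1 line without DKO1 replicate 1, DKO2 replicate 1 or either parental replicate. Genes of antigen presentation on MHC molecules went down in 5 of 24 and up in 1, and up in none with the neighbour median subtracted. The class II genes HLA-DRA and HLA-DRB1 went from at most 0.739 TPM to at most 0.11. Of 72 G protein-coupled receptors 11 fell and 7 rose. CMKLR1, the chemerin receptor, had 11.9 and 13.5 TPM in parental, 0 reads in both libraries of DKO1 (at least 192-fold lower) and 1.04 and 1.27 TPM in DKO2, and the chemokine receptor CXCR4 rose from 14.1 and 14 TPM to between 23.5 and 30.6. Of 36 potassium, sodium and calcium channel genes 7 fell and 2 rose, CACNA2D4 from 5.34 and 5.67 TPM to between 0.0445 and 0.277.

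Transcription factors of several families were called. KLF13, which recruits SIN3A to promoters, had 7.1 and 7.6 TPM in parental and 1.21, 1.05, 1.22 and 1.09 in DKO, lower by 2.27 and 2.25 on the log2 scale (standard error 0.09, adjusted p = 1.7e-08 and 2.3e-08 in limma). Its relatives KLF9 and KLF15 rose, KLF9 from 12.8 and 12 TPM to between 26.7 and 33.9, and KLF5 fell from 55.4 and 56.8 to between 22.1 and 26.2, so that 4 of 24 GATA, KLF and SP genes fell and 2 rose. Of 21 forkhead genes 3 fell and 1 rose; FOXF2 had 17.9 and 15.7 TPM in parental and 1.74 to 1.99 in DKO, and FOXQ1, its neighbour on 6p, 135 and 133 TPM and 49 to 61.2. The genes around FOXF2 and FOXQ1 were lower as a group, with neighbour medians between -0.74 and -0.45, and with these subtracted FOXQ1 in DKO1 was no longer called. T-box and homeobox genes went both ways, 4 lower and 4 higher of 29, with TBX1 going from 79 and 73 reads to at most 2. SOX4 and SOX5 were the 2 of 9 SOX genes that fell, and HOXB3 and HOXC8 the 2 of 11 HOX genes; SOX5 was not called in either line without replicate 2 of that line or without parental replicate 1. Of 19 tested neuronal genes repressed by REST, a factor that recruits SIN3, 3 fell and 1 rose, so that this list gave 1 higher member in all, GDAP1, and a median log2 fold change of 0.07 and 0.12. GDAP1 was not called in either line without parental replicate 1, nor in DKO2 without its replicate 2. No forkhead gene was higher without DKO2 replicate 2, and 2 rather than 4 T-box and homeobox genes were higher without parental replicate 2.

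Enzymes of metabolism were called in both directions. Of 14 aldehyde dehydrogenases 4 fell and none rose, ALDH3A2 from 82.8 and 87.7 TPM to between 43.3 and 51.9 and ALDH5A1 from 16.5 and 15.9 to between 4.82 and 8. Of 16 cytochrome P450 genes 4 fell and 3 rose. CYP24A1, which inactivates vitamin D, had 7.03 and 7.08 TPM in parental, 0.252 and 0.151 in DKO1 and 0.618 and 0.743 in DKO2, and CYP2J2 rose from 1.8 and 2.77 TPM to between 7.04 and 10.2. Of 26 targets of ATF4, the factor of the amino acid response, 5 rose and 1 fell, with a median log2 fold change of 0.43 in DKO1 and 0.1 in DKO2. CTH, of cysteine synthesis, had 20.9 and 22.4 TPM in parental, 57.5 and 63 in DKO1, and 43.6 and 33.3 in DKO2, and DDIT3 31.5 and 31.8 TPM and 61.7, 76.3, 60.7 and 48. The member that fell was ADM2. Of 28 NRF2 targets 3 fell and 2 rose, among them NQO1, lower by 0.91 and 1.06 but not called in DKO1 with the neighbour median subtracted, and UGDH, higher by 1.30 and 1.01 on the log2 scale. Of 27 hypoxia genes 2 fell and 3 rose, STC1 from 20.7 and 21.9 TPM to between 54.6 and 62.5 and P4HA1, a collagen prolyl hydroxylase, from 99.6 and 95.5 to between 47.4 and 52.3. Of 20 fatty acid genes 2 fell and 2 rose, and of 30 p53 targets 3 fell and 2 rose, PHLDA3 from 14.3 and 14.5 TPM to between 2.99 and 4.09. With the neighbour median subtracted, 1 fatty acid gene fell and 1 rose, since ACACA and ACSL4 were not called, 1 NRF2 target fell and 1 rose, and 1 p53 target rose. ELOVL3, a fatty acid elongase that rose, was not called in DKO1 without DKO1 replicate 1 or parental replicate 1. The count of p53 targets that rose was 1 without DKO2 replicate 1 or parental replicate 2, and that of ATF4 targets 3 without DKO2 replicate 1 and 8 without DKO2 replicate 2.

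Germline genes are silent in most adult tissues outside the gonads. Of 24 tested germ cell and cancer-testis genes 7 fell and 3 rose. MAGEA12 had 39 and 31 reads in parental and 1 read in 1 DKO library, and SPANXC, SPANXD and SPANXE fell from between 5 and 17 reads to at most 1. MAGEA12 passed the filter through the parental libraries alone, so that it could only be called lower. The SPANX genes are near-identical copies, and reads may have been split among them. The position table places MAGEA12, SPANXC and SPANXD on the X chromosome.

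Lists of the machinery that all growing cells share were among those with the lowest shares. Genes at 100 TPM or more in parental were also called less often, 2.33% lower and 1.58% higher in both lines. The part of expression level in the low shares was not tested. Of 76 mitochondrial ribosomal proteins, 28 Polycomb subunits, 20 aminoacyl-tRNA synthetases, 32 ribosome biogenesis factors and 20 chaperones of the endoplasmic reticulum, none was called the same way in both lines. Of 48 mitosis genes 1 was called, CDC20, an activator of the anaphase-promoting complex, with 390 and 395 TPM in parental and 624 to 660 in DKO. Of 80 subunits of oxidative phosphorylation NDUFA1 and NDUFB9 rose, and of 52 DNA replication genes RPA3 rose and GINS2 fell. Immediate early genes, which are not such machinery, had a low share only for calls in both lines. Of 32 tested, ETV4 rose in both. In DKO1 9 of the 32 were higher and 1 lower, against 7.76% higher of all genes, and in DKO2 1 was higher. Of 81 cytosolic ribosomal proteins RPL9, RPL10 and RPL39L rose and RPL22L1 fell. Ribosomal protein genes have many processed copies in the genome, to which reads may also have been assigned. CDC20, NDUFA1, NDUFB9, RPA3, GINS2, RPL9 and RPL10 were not called in either line once the median of their neighbours was subtracted. ETV4 was not called in DKO2 without DKO2 replicate 1, which left no called immediate early gene, while 2 were higher without DKO2 replicate 2 or parental replicate 1. RPA3 was not called in DKO1 without parental replicate 1, and without DKO1 replicate 2 the count of higher replication genes was 2. Without DKO2 replicate 2, 1 mitochondrial ribosomal protein and 2 chaperones were higher and 1 Polycomb subunit lower, and without parental replicate 2, 1 chaperone was lower. Among 441 tested zinc finger genes named ZNF 7 fell and 12 rose, with the largest changes in ZNF415, ZNF702P and ZNF354C, which fell, and ZNF165, which rose; with the neighbour median subtracted 6 rose. In all, the 12 lists with low shares held 934 members, of which 10 were lower and 20 higher.

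Called genes were unevenly placed along the chromosomes. On the long arm of X, 92 of 266 tested genes (34.6%) were higher in both lines and 9 lower, against 4.7% and 5.99% of all genes, and the median log2 fold change of the arm was 0.51 in DKO1 and 0.52 in DKO2. On 16q, 48 of 259 genes (18.5%) were lower, with a median of -0.42 and -0.43, and on 17q 63 of 543 (11.6%) and 13q 28 of 244 (11.5%) were lower. On 4p 23 of 157 genes (14.6%) were higher, and on 20p, the arm of CST1, CST2 and CST4, 17 of 120 (14.2%). Libraries of SAP30-KO showed medians from 0.56 to 0.60 on Xq and from -0.44 to -0.41 on 16q, both relative to the parental mean. Those of MLL1-KO ran from 0.37 to 0.44 on Xq and from -0.53 to -0.43 on 16q. The shifts on Xq and 16q were thus seen in all edited lines. On 4p the medians ran from 0.29 to 0.36 in DKO, but from -0.21 to 0.27 in MLL1-KO. Copy number was not tested. When the running median over 51 neighbouring genes was taken off each library, 16 genes were higher and 17 lower on Xq, 13 lower and 12 higher on 16q, and 674 genes in all were lower and 436 higher, against 779 and 613 of the same 13067 genes without it. Members of lists named above that lie on these arms, such as COL4A5, CHRDL1 and APLN on Xq and CDH1, MMP2, IRX3 and IRX5 on 16q, were still called after the subtraction, and ACSL4 and FOXO4 on Xq were not.

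**Figure D5:**
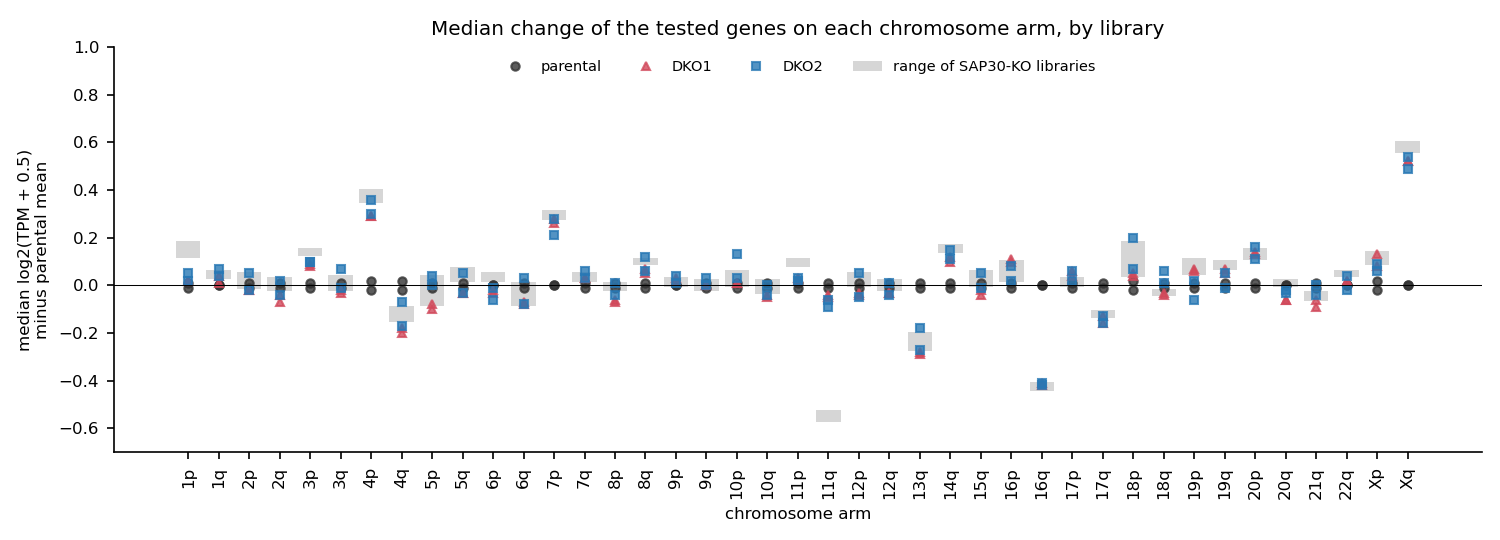
Median change from the parental mean over the tested genes of each chromosome arm with at least 30 tested genes, in log2(TPM + 0.5), with 1 point per library for parental, DKO1 and DKO2 and a grey bar for the range of the 4 SAP30-KO libraries. Xq lies near 0.5 and 16q near -0.42 in all 4 DKO libraries, SAP30-KO has similar medians on both, and 11q is lower in SAP30-KO but not in DKO.

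To show where the DKO lines differ, they were compared directly with the SAP30-KO lines, without the parental libraries. The mean of the DKO lines was lower at 572 genes (4.22%) and higher at 440 (3.25%), 7.47% together; with the neighbour median subtracted, 266 were higher. SAP30 itself had a mean of 3.64 TPM in SAP30-KO and 66.1 to 75.6 in DKO. IL24 had a mean of 18.9 TPM in SAP30-KO, so that DKO was higher by 2.81 on the log2 scale (standard error 0.12, adjusted p = 3.2e-08 in limma). TGIF2LX and RNF43 were higher in DKO too, by 3.23 and 1.34, whereas ID4 had a mean of 92.2 TPM in SAP30-KO and was lower in DKO by 0.94. Of the genes lower than in parental, COL6A1 was further down in DKO than in SAP30-KO by 1.86, KLF13 by 1.86, NEO1 by 1.81 and P4HA1 by 1.09, while CLDN1 and DSP were less far down, higher than in SAP30-KO by 0.85 and 1.08. RDX was higher by 0.74, but it lies on 11q, where the arm median was -0.57 to -0.53 in SAP30-KO and -0.09 to -0.04 in DKO, and with the neighbour median subtracted its difference was 0.21 and no longer called. For TFF1, TFF2, TFF3, COCH and SCARA3, no DKO library exceeded 0.241 TPM and the SAP30-KO mean was at most 0.0912 TPM, so that a difference was not detectable at this depth. CST1, CST2 and CST4 had means of 261, 74.2 and 133 TPM in SAP30-KO and were lower in DKO. By lists, 42 of 51 clustered protocadherins were lower in DKO than in SAP30-KO and none higher, with a median difference of -0.62 on the log2 scale; with the median of their neighbours subtracted, many of which are members themselves, 18 were lower and 2 higher. These genes are neighbours on 5q with shared exons, and 7 of the 51 were lower than parental in both DKO lines. Several described lists differed less between DKO and SAP30-KO. The median difference was -0.05 for BMP, -0.08 for Notch, -0.09 for desmosome genes and 0.01 for keratins. For collagens it was -0.23 and for antigen presentation -0.38.

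The lines DKO1 and DKO2 differed from each other at 302 genes (2.23%), 165 higher and 137 lower in DKO1. Of the genes named above, ENG was further down in DKO2, by 2.43 on the log2 scale (standard error 0.12, adjusted p = 7.6e-07 in limma), and CMKLR1 and TGFBI further down in DKO1, by 1.72 and 1.61. The 2 libraries of DKO2 differed most between themselves, and without its replicate 1 the count of genes higher in DKO1 was 254. That count was 106 without DKO2 replicate 2, 109 without DKO1 replicate 1 and 97 without DKO1 replicate 2. Counts of genes lower or higher in both lines stayed between 769 and 834 and between 550 and 674 when each of the 6 libraries was left out in turn.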

How the data were processed

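RNA-Seq was made from poly(A) RNA of 14 libraries (7 groups of 2) with a KAPA mRNA HyperPrep kit, and the submitters' processing notes name FastQC 0.11.2, TopHat, featureCounts and hg19. The deposited table holds 19410 gene rows, 28 of them with names turned into dates. The authors call its values RPKM, but each library sums to 1000000, and the deposited values were used as TPM. The test for normalized values planned for RPKM was kept. Columns were matched to samples by name and none was left unused.

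The steps between low values gave back whole reads within 0.02 reads for 18519 of 18519 genes above 0. A step is fixed only where counts share no factor, and for TFF3, seen in few libraries, it was undetermined. Recovered depth ran from 18415036 to 23162682 reads per library, and intervals (95%) and floors (3 reads) cover counting error only. Genes with at least 1 TPM in at least 2 libraries were tested with limma 3.58.1 (R 4.3.3; mean-variance trend, 7 group means, all 14 libraries, 7 residual degrees of freedom) on log2(TPM + 0.5), a scale that understates changes of low genes, with Benjamini-Hochberg adjustment over 13540 genes. All adjusted p-values come from this fit. The script was tested on simulated data.

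The comparison and the gene lists were chosen with earlier results of these data known. Named were SIN3 subunits, up to 4 members per described list and the 15 genes per direction with the largest smaller change of the lines (mean of at least 5 TPM), and the genes the study followed; others were named after their values were seen, and a few genes are not reported here. Alternatives were another pseudocount, filter, scaling, fold minimum or set of libraries, voom on recovered reads, the replicate number as a block, each library left out, and a median of 51 neighbouring genes subtracted. The replicate numbers did not pair the libraries (correlations of deviations between -0.04 and 0.06). Gene positions are GRCh37 and promoter windows RefSeq GRCh38.p14.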

Additional observations from a re-analysis of the deposited data

Results flagged for a closer look

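Among the named genes, 27 differed between the lines DKO1 and DKO2 in the direct contrast (adjusted p from 2.6e-09 to 0.046 from limma), 13 higher and 14 lower in DKO1; the values below are the log2 fold change in DKO1 minus that in DKO2. KRT81 differed most, by -2.59, and was called in opposite directions. Among genes called lower in both lines, the difference was 2.43 for ENG, 1.19 for CD40, 1.07 for CYP27A1, 0.90 for SPINT1, 0.86 for CLDN1, 0.80 for IGF2, 0.76 for ACTG2 and 0.70 for MMP16, so that DKO1 was less far from parental. The change in DKO1 was the larger for MYO1F (-1.78), CMKLR1 (-1.72), TGFBI (-1.61), CYP2S1 (-1.16), CSPG4 (-0.99), KRT19 (-0.91), CYP24A1 (-0.75), PARD6B (-0.70), FGFR4 (-0.69), JUP (-0.68), ANGPTL4 (-0.65) and ALDH5A1 (-0.62). Among genes called higher in both lines, the difference was 1.47 for SPINK1, 1.18 for CST1, 0.95 for CST4, 0.65 for CTH and 0.63 for CST2, with the larger increase in DKO1, and -0.74 for COL5A2, with the larger increase in DKO2.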

How the results depend on the processing

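Depth limits genes of a few reads, 2 libraries per group limit the spread that can be estimated, and DKO2 replicates differed most. With a 2-fold minimum, DKO1 had 512 lower and 309 higher genes, DKO2 474 and 230, and both lines 366 and 168; DKO against SAP30-KO gave 183 and 105, and DKO1 against DKO2 43 and 68. With no fold minimum these were 3820 and 3769, 3238 and 3476, 2737 and 2844, 3578 and 3006, and 785 and 908. The fold minimum also changed the calls of named genes and the list counts. With the 2-fold minimum, 137 of 542 gene and line values of named genes lost their call. Of the counts of lower and higher list members, 68 were then classed as moved and 52 as the same. With no fold minimum, 81 were classed as moved and 39 as the same. Subtracting the neighbour median left 266 genes higher in DKO than in SAP30-KO, and the fit of 6 libraries gave 91 genes higher in DKO1 than in DKO2; the SAP30-KO comparison could not be fitted there. For the last pair of counts the cause was not tested. Leaving out 1 library at a time gave 97 to 254 genes higher in DKO1 than in DKO2 and 103 to 171 lower. No named gene reversed; of 542 gene and line values, 40 of 534 with a position lost their call under neighbour subtraction and at most 17 under any library left out.

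The replicate numbers do not pair the libraries. With the replicate block, 1174 and 1056 genes were called in DKO1, 1028 and 812 in DKO2, 814 and 632 in both, 574 and 441 against SAP30-KO, and 136 and 166 between the lines, and no call of a named gene was lost.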

Other observations

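Of the lists not described above, solute carriers had 10 lower and 17 higher of 198 tested members and clustered histone genes 4 lower and none higher of 34, against 5.99% lower and 4.7% higher of all genes. Of 6 tested classical cadherins, CDH1, CDH3 and CDH18 were lower and CDH11 higher in both lines. Of 25 tested DNA-binding partners of SIN3, 2 were lower and 1 higher.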
